A study of Mus musculus with 8 samples.

Results

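Transforming growth factor beta (TGF-beta) genes were examined in primary cell lines of murine pancreatic ductal adenocarcinoma (PDAC) after inhibition of MEK. The group holds 9 genes, chosen by name: the ligands Tgfb1, Tgfb2 and Tgfb3, the receptors Tgfbr1, Tgfbr2 and Tgfbr3, and the signal transducers Smad3, Smad4 and Smad7. All 9 symbols were found among the 34478 genes of the table. RNA was sequenced from 4 lines, numbered #1, #3, #5 and #10, with 1 library per line and treatment. The lines were grown out of tumors of mice that carried a Cre recombinase at the Ptf1a locus, which is active in the pancreatic lineage, together with Cre-dependent alleles that include loxP-flanked Trp53 on both copies (Ptf1a wt/Cre and Trp53 loxP/loxP). Controls received DMSO, and the treated cells received trametinib, an inhibitor of the kinase MEK, for 48 h at the half-maximal inhibitory concentration of each line, so that the concentration may differ between lines. All 8 libraries share the genotype and the culture medium, and whether the lines are clones is not given in the sources used here.

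TGF-beta ligands are secreted as latent complexes and have to be released before they can bind. The active ligand brings together a type II receptor, encoded by Tgfbr2, and a type I receptor, encoded by Tgfbr1, which phosphorylates SMAD2 and SMAD3. These pair with SMAD4 and act on genes in the nucleus, among them Smad7, whose product blocks the receptor. In pancreatic cancer the pathway is known both for restraining epithelial growth and for promoting epithelial-mesenchymal transition and matrix production.

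With trametinib, Tgfb2 was 34.1-fold and Tgfb3 7.25-fold higher, both receptors of the signaling complex rose, and Smad7 rose slightly, while Tgfb1, Smad3 and Smad4 did not pass the test. Of the 9 genes, 8 had a mean of at least 10 normalized counts and were tested, and 5 of these 8 were higher. The call required an adjusted p under 0.05 from limma, in a model that blocked on the cell line and was adjusted over all 15888 genes tested. Among all genes tested, 53.0% passed, 27.3% as higher and 25.6% as lower. The higher genes made up 51.6% of those that passed, 61.8% under equal library totals, 47.2% under quantile normalization and 46.1% under centring on the median, so that the majority direction turned with the scaling. These scalings moved the median log2 fold change of all genes by 0.13, -0.10 and -0.06. None of the 8 passed as lower in limma, and 1 of them, Tgfb1, had an unadjusted p under 0.05 with a lower value. In 5 members the 4 libraries of one treatment did not overlap the 4 of the other, which was also the case in 31.3% of all genes tested. The replicates are separate cell lines, and the block takes up differences in level between them. The errors therefore cover how the change with trametinib varied between lines. No line was measured more than once per treatment.

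The library totals ran from 30680091 to 36385719 normalized counts. The worth of 1 read, about 0.775 to 1.24 of them, was estimated from the most common low value of each library. As a check of the treatment, all 12 genes of a list of transcripts kept up by MAPK signaling fell in limma, with a median log2 fold change of -2.37, led by the transcription factor genes Etv4 at -5.92, Etv5 at -4.82, Egr1 at -4.64 and Fosl1 at -3.73. Of the epithelial genes, Cdh1 stood at 19630 to 28487 with DMSO, whereas Epcam was listed at 0 in 6 of 8 libraries. The 8 markers of pancreatic duct epithelium summed to 231006 to 353416 per DMSO library and to 119359 to 231497 with trametinib, and 6 of the 7 tested fell. The 10 fibroblast markers summed to only 75.4 to 242 with DMSO and 72.6 to 155 with trametinib, Lum was at 0 in all 8 libraries, and 0 of the 4 tested passed in limma at an adjusted or unadjusted p under 0.05. The 6 leukocyte markers in the table went from 150 to 241 with DMSO to 235 to 515 with trametinib, with Csf1r the 1 of 4 tested that rose, though it did not pass without the block (adjusted p = 0.089 in limma). The 5 endothelial markers went from 38.1 to 82.1 with DMSO to 75.5 to 1779 with trametinib, with Tek and Vwf higher and the defining gene Cdh5 at 17.5 or less in every library. Vwf did not pass under 9 of 15 alternatives, among them no block, and its log2 fold change went from 2.14 to 1.17 without line #3. The 5 acinar markers summed to 40.3 to 252 with DMSO and 17.5 to 127 with trametinib, Cpa1 was at 0 throughout, and the only marker tested, Cela1, fell. Its log2 fold change of -0.73 was lower in 4 of 4 lines, but the call was lost without the block, under the 2-fold minimum, and without line #1, line #5 or line #10, where it was -0.76, -0.70 and -0.64. The part of these markers in the results was not tested, and in these bulk samples a change in the number of expressing cells cannot be told apart from a change in RNA per cell.

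The promoter of Tgfb2 is shown here because this gene changed most among the members, and that of Tgfb1 because this ligand did not rise. The sequences are the 250 bases before the start site from RefSeq on GRCm38.p6, in which entries for 5 of the 9 genes were found. Tgfb2 is read from the minus strand at chr1:186705990-186706239, and Tgfb1 from the plus strand at chr7:25686752-25687001. Capitals mark matches on either strand to the motifs searched. The letters were TATAAA for the TATA box, CACGTG for the E-box and TGACG for the half-site of the cAMP response element. For SMAD proteins they were CAGAC, for the GC box GGGCGG and for AP-1 proteins TGANTCA. For ETS factors the search used CCGGAA and for TEAD factors GGAATG, and the CArG box of SRF was searched as well.
Tgfb2: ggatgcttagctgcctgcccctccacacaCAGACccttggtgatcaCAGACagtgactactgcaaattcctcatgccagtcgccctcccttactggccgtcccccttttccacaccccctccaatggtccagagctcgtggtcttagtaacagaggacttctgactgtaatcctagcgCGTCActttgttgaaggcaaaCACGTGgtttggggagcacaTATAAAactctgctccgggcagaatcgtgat
Tgfb1: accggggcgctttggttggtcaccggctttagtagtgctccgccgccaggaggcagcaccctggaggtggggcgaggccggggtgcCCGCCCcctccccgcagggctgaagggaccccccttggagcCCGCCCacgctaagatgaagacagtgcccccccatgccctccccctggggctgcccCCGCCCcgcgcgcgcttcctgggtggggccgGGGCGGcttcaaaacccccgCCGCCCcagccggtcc
The Tgfb2 promoter held a TATA box that begins 31 bases before the start site, an E-box at 51 bases, a reversed cAMP half-site at 72 bases, and SMAD letters at 204 and 221 bases. The Tgfb1 promoter held none of these motifs but 5 GC boxes, and its GC content was 75.2% against 53.6% for Tgfb2 and a median of 52.4% over all entries. None of these matches overlapped another motif, apart from the E-box, which reads the same on both strands. Of the 32851 promoter entries, 12.4% held TATAAA, 6.02% CACGTG, 17.8% TGACG, 42.2% CAGAC and 32.7% GGGCGG. The letters of AP-1, present in 6.75% of entries, of ETS in 12.0%, of TEAD in 12.6% and of the CArG box in 1.47% were in neither of the 2 windows. Among the entries not shown, that of Tgfbr1 at chr4:47352972-47353221 had a GC content of 74.8% and only GC boxes, though Tgfbr1 rose. The Tgfbr1 entry at chr4:47385966-47386215 (52.8%) and that of Tgfbr2 (58.4%), which also rose, held only SMAD letters. For Smad3, which did not pass, it was 69.2% with only GC boxes. These matches describe the sequence and do not show that a factor binds there.

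Tgfb2 lies on chromosome 1 from 186622792 to 186705989 of GRCm38 (GENCODE M21) and encodes the ligand that needs the co-receptor betaglycan for efficient binding. It stood at 58.8 normalized counts with DMSO in line #1, 51.2 in line #3, 103 in line #5 and 63.9 in line #10. With trametinib it reached 2159.8, 1960.2, 3020.2 and 2229 in the same order. Every trametinib library lay far above every DMSO library, and line #5 was the highest under both treatments. On the log2 scale the change was 5.09 (standard error 0.12, 95% interval 4.79 to 5.39, adjusted p = 1.5e-05 in limma), and the 4 lines lay between 4.86 and 5.23. Among the 15888 genes tested, Tgfb2 had the second smallest p-value and ranked 22 by the size of its rise. Gm29491, an antisense gene whose exons overlap those of Tgfb2, was listed at 0 with DMSO and at 0.954 to 7.64 with trametinib.

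Tgfb3, on chromosome 12 from 86056745 to 86079041, encodes a ligand best known from palate development and wound repair. Its DMSO values were 484 in line #1, 308 in line #3, 338 in line #5 and 354 in line #10. Its trametinib values were 2904, 3112, 2229 and 2470.1. All 4 lines moved up without overlap, most in line #3, where the ratio was 10.1, and least in line #1, where it was 5.99. The log2 change was 2.86 (standard error 0.14, 95% interval 2.52 to 3.19, adjusted p = 9.4e-05 in limma), which ranked 306 by size.

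Tgfb1, on chromosome 7 from 25687002 to 25705077, encodes the most widely expressed ligand of the family. With DMSO it stood at 1489 normalized counts in line #1, 965 in line #3, 1608 in line #5 and 1266 in line #10. The trametinib values were 874, 865, 1198 and 1223. They were lower in 4 of 4 lines, with a difference of -41.3% in line #1 but only -3.39% in line #10, and the groups overlapped. The log2 fold change of -0.35 had a 95% interval from -0.67 to -0.02 before adjustment and did not pass (adjusted p = 0.068 in limma). Over the alternatives its adjusted p from limma lay between 0.0502 and 1.00, and without line #1 the log2 fold change was -0.21.

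**Figure D1:**
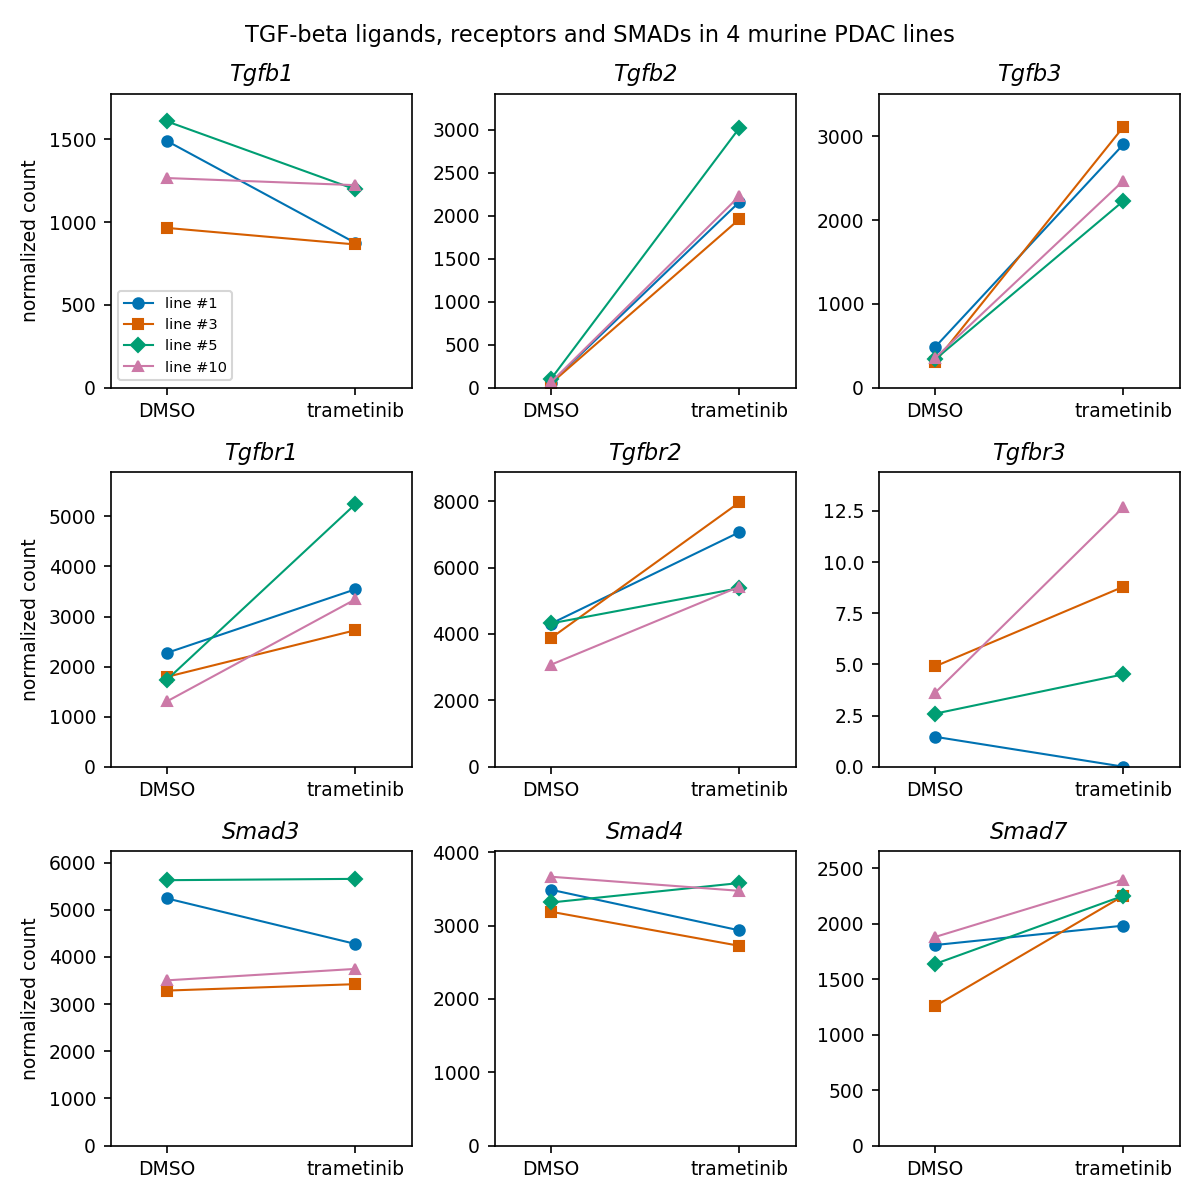
Normalized counts of the 9 genes (vertical axes, linear from 0, a separate scale for each gene) with DMSO and with trametinib, 1 point per library and 1 line joining the libraries of each cell line. Tgfb2 and Tgfb3 rise steeply in all 4 lines, the lines go in both directions for Smad3 and Smad4, and Tgfbr3 lies at 12.7 or less throughout.

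To set the ligands side by side, values were divided by the exonic length of each gene, on the assumption that the normalized counts are not already scaled by length. Per kilobase, Tgfb1 made up 65.7% to 73.1% of the 3 ligands together in the DMSO libraries, Tgfb3 22.9% to 31.9% and Tgfb2 2.26% to 4.08%. With trametinib Tgfb3 made up 46.5% to 64.3%, Tgfb2 23.7% to 36.8% and Tgfb1 12.0% to 17.9%. Thus Tgfb1 was the leading ligand in each DMSO library and the least abundant one in each trametinib library. The sum of the 3 ligands per kilobase went from 386 ± 72.6 under DMSO to 1403 ± 31.7 under trametinib (SD, n = 4 lines each), and with the longest coding transcripts as lengths from 736 ± 146 to 1728 ± 51.5 (SD, n = 4 lines each). The trametinib sums of the lines per kilobase of exon lay close together, between 1358 and 1430.1. Both sums and shares depend on the length used, since the exons of Tgfb1 cover 5042 bases but its longest coding transcript has 2175. With the longest coding transcripts, the share of Tgfb1 went from 83.1 ± 2.14% under DMSO to 27.6 ± 4.65% under trametinib (SD, n = 4 lines each), and Tgfb1 then lay above Tgfb2 with trametinib in lines #3 and #10.

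**Figure D2:**
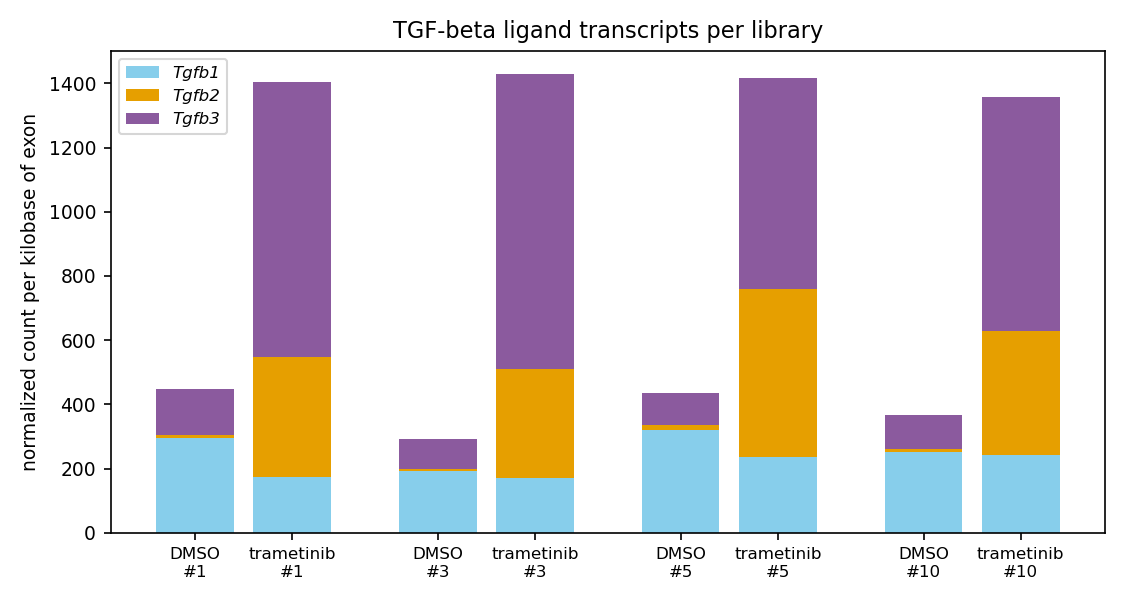
Stacked bars give the normalized count per kilobase of exon (vertical axis) of Tgfb1, Tgfb2 and Tgfb3 in each of the 8 libraries, paired by cell line. The total rises from 291 to 449 with DMSO to 1358 to 1430.1 with trametinib, and Tgfb2 and Tgfb3 fill most of the trametinib bars.

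The type I receptor gene Tgfbr1 lies on chromosome 4 from 47353222 to 47414931. With DMSO it stood at 2275 in line #1, 1796 in line #3, 1741 in line #5 and 1306 in line #10. With trametinib it stood at 3543, 2726, 5245 and 3343. The groups did not overlap, and the rise was 3.01-fold in line #5 and 2.56-fold in line #10 against 1.56-fold in line #1 and 1.52-fold in line #3. The fitted change on the log2 scale was 1.05 (standard error 0.18, 95% interval 0.61 to 1.48, adjusted p = 0.0035 in limma).

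Tgfbr2, the gene of the ligand-binding type II receptor, lies on chromosome 9 from 116084293 to 116175360. Its DMSO values were 4313 in line #1, 3879 in line #3, 4319 in line #5 and 3074 in line #10, and its trametinib values 7067, 7966, 5381 and 5424. All lines rose without overlap, with line #3 the highest under trametinib and line #5 the least changed at 1.25-fold. The log2 fold change was 0.72 (standard error 0.12, 95% interval 0.42 to 1.02, adjusted p = 0.0034 in limma). Line #5 thus had the largest ratio of the 4 lines for Tgfbr1 and the smallest for Tgfbr2, and line #3 the reverse, which could not be tested with 1 library per line and treatment.

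Tgfbr3, on chromosome 5 from 107106570 to 107289629, encodes betaglycan, the co-receptor that presents TGF-beta2 to the type II receptor. Lines #1, #3, #5 and #10 held 1.46, 4.90, 2.59 and 3.61 normalized counts under DMSO and 0, 8.79, 4.51 and 12.7 under trametinib. By the estimated worth of a read, these values correspond to about 1.9, 4.7, 2.1 and 3.8 reads and to about 0, 9.4, 5.6 and 13.2 reads. The gene was near the lower limit of detection in all 8 libraries, it lay below the filter and was not tested, and line #1 went down where the other 3 lines went up. A floor of 3 reads came to 2.32 to 3.72 normalized counts, so that 2 of the 4 DMSO values and 1 of the 4 trametinib values lay under it.

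Smad3, on chromosome 9 from 63646767 to 63757994, encodes a receptor-activated SMAD that binds DNA. It stood at 5240.5 with DMSO in line #1, 3288 in line #3, 5629 in line #5 and 3505 in line #10. With trametinib it stood at 4277, 3424, 5656 and 3748. The lines differed more from each other than the treatments did, with line #5 the highest under both treatments. On the log2 scale the change was -0.03, with a 95% interval from -0.26 to 0.19, and did not pass (adjusted p = 0.79 in limma). The sign of this value was reversed under equal library totals, under quantile normalization and without line #1.

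Smad4, the common partner of the activated SMADs and a tumor suppressor of the pancreas, lies on chromosome 18 from 73639009 to 73703780. Under DMSO the lines #1, #3, #5 and #10 held 3489, 3189, 3315 and 3666, and under trametinib 2935, 2725, 3580.4 and 3475. Transcript was thus present in all 8 libraries and the groups overlapped. The log2 change was -0.11, with a 95% interval from -0.33 to 0.11 (adjusted p = 0.35 in limma), and its sign was reversed with equal totals and with quantile normalization.

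Smad7, the inhibitory SMAD that TGF-beta signaling itself induces, lies on chromosome 18 from 75367529 to 75395935. Under DMSO it reached 1808 in line #1, 1258 in line #3, 1638 in line #5 and 1881 in line #10, and under trametinib 1983, 2251, 2252 and 2398. The groups did not overlap but came close, since the lowest trametinib value was in line #1 and the highest DMSO value in line #10. The fitted change on the log2 scale was 0.45 (standard error 0.13, 95% interval 0.15 to 0.75, adjusted p = 0.023 in limma), from 0.13 in line #1 to 0.84 in line #3. It did not pass without the cell line as a block (adjusted p = 0.060), with centring on the median (0.064), without the variance trend (0.058), without line #5 (0.075) or without line #10 (0.059), all in limma.

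**Figure D3:**
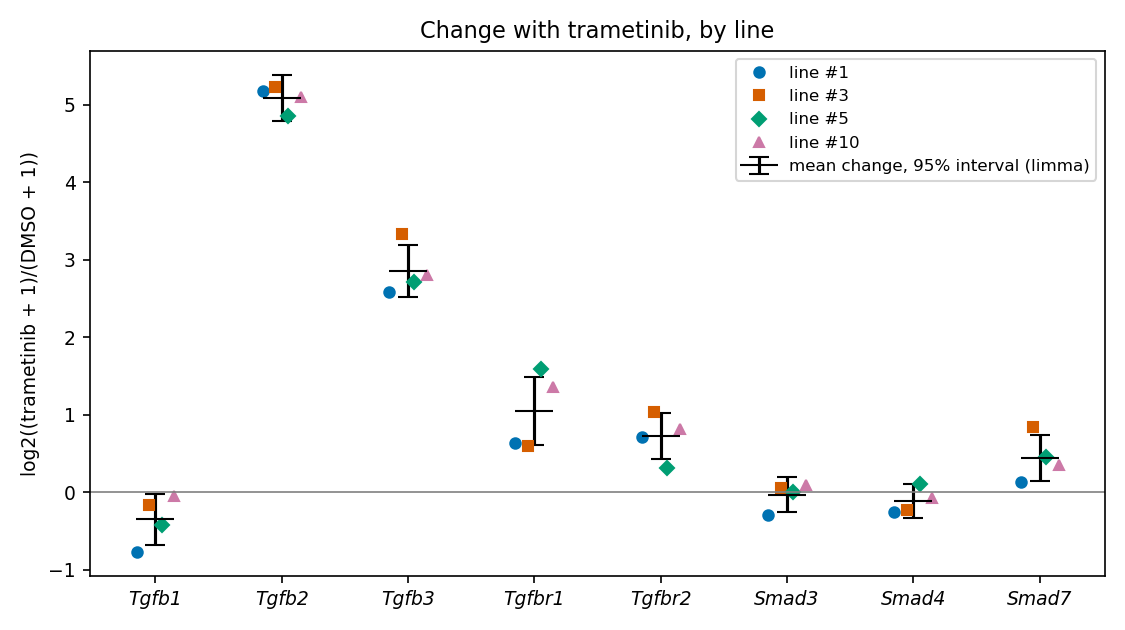
Change with trametinib on the log2(normalized count + 1) scale (vertical axis) for the 8 genes tested. Symbols are the 4 cell lines, the horizontal bar is the mean and the whisker its 95% interval from limma before adjustment. Tgfb2 lies between 4.86 and 5.23 in the 4 lines, while Smad3 and Smad4 lie around 0.

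Across the members, levels per kilobase of exon were highest for Smad4 with DMSO, at 920 ± 56.0 (SD, n = 4 lines), followed by Smad3 at 797 ± 215, Tgfbr2 at 476 ± 71.5, Smad7 at 364 ± 61.5, Tgfbr1 at 272 ± 60.6 and Tgfb1 at 264 ± 56.1. Tgfb3 followed at 110 ± 23.0, Tgfb2 at 12.0 ± 4.01 and Tgfbr3 at 0.480 ± 0.224. Smad4 and Smad3 overlapped in their line values, as did neighbors in the order from Tgfbr2 to Tgfb1. With trametinib Tgfb3, at 792 ± 119 (SD, n = 4 lines), was in the same range as Smad4 at 856 ± 112, Tgfbr2 at 789 ± 156 and Smad3 at 772 ± 178. Tgfb2 reached 404 ± 80.5 (SD, n = 4 lines), above Tgfb1 at 206 ± 39.1 in every line and overlapping with Smad7 at 491 ± 38.3. With the longest coding transcript as the length, Tgfb1 ranked 3 with DMSO, at 612 ± 130 (SD, n = 4 lines).

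The genes whose log2 values followed those of the members most closely over the 8 libraries were searched among all genes tested, as a description, since the libraries share lines and treatments. For Tgfb2 these were AL589871.2, Adamts1 and Coro6, with a Pearson correlation of 0.99 each, and 210 genes were above 0.95. For Tgfbr1 they were Zbtb5 at 0.98 and Epb41l1 and Trib3 at 0.97, and 5 genes were above 0.95. For Smad7 they were Coro2b at 0.99, Zfp664 at 0.98 and Rabgef1 at 0.97.

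Other genes of the pathway were described from lists, beside a median log2 fold change of 0.07 over all genes tested. Among all genes tested, 27.3% passed as higher and 25.6% as lower. Of 20 genes that store or release latent TGF-beta, 18 were tested, 12 rose, 1 fell and 5 did not pass in limma, with a median of 0.84. The list held the 4 genes named for latent TGF-beta binding proteins. Of these, Ltbp1, Ltbp3 and Ltbp4 rose by 0.64, 0.72 and 1.92 on the log2 scale in limma. Ltbp2 ranged from -2.95 in line #10 to 5.15 in line #3 and did not pass. Ltbp4 stood at 1161, 815, 629 and 529 under DMSO and at 3549, 8083, 1594 and 1403 under trametinib in lines #1, #3, #5 and #10. Line #3 was the highest with trametinib, and without it the log2 fold change was 1.45. For Ltbp1 the change stayed at 0.64 without the block, with an adjusted p of 0.076 in limma. The 5 integrin chains on the list, known for releasing the latent ligand, all rose in limma. Itgb6 averaged 369 ± 114 under DMSO and 2336 ± 878 under trametinib (SD, n = 4 lines each). It rose by 2.64 on the log2 scale (limma, adjusted p = 8.1e-05), and its partner Itgav rose by 0.47, though it did not pass without line #5. Itgb8 was listed at 12.7, 0, 6.93 and 4.36 with DMSO and at 156, 155, 126 and 15.2 with trametinib in lines #1, #3, #5 and #10. Its fitted log2 fold change of 4.10 (limma, adjusted p = 0.0064) depends on the pseudocount and on single lines, with 3.04 without line #3 and 4.94 without line #10. Thbs1, the gene of the activator thrombospondin-1, rose by 3.64 (adjusted p = 0.00054 in limma). Pcsk6, a proprotein convertase, was the gene that fell, by 2.93 on the log2 scale (limma, adjusted p = 0.00024), while Furin, the convertase known to cleave the TGF-beta precursor, did not pass at 0.26.

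Of 15 co-receptors and regulators of the receptors, 6 rose, 3 fell and 6 did not pass in limma, with a median of 0.16. Thus 9 of the 15 passed, beside 53.0% of all genes tested. Pmepa1, a feedback inhibitor induced by TGF-beta, averaged 7059.5 ± 1288 under DMSO and 12330.5 ± 464 under trametinib (SD, n = 4 lines each), a rise of 0.82 on the log2 scale (limma, adjusted p = 0.0013). The co-receptor Eng rose by 0.90 on that scale (adjusted p = 0.027 in limma), but it did not pass with quantile normalization, where it was 0.43, without the filter, without the block, or without line #1, line #3 or line #10. Usp15 and Strap fell by 0.83 and 0.82 on the log2 scale. Without the cell line as a block 2 of the 15 rose and 2 fell, and 4 rose without line #1 and 3 without line #10.

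Of 20 other SMADs and nuclear partners, 19 were tested, 7 rose and 5 fell in limma, with a median of 0.07. Thus 12 of the 19 passed, beside 53.0% of all genes tested. Smad2, the other SMAD phosphorylated by the TGF-beta receptor, averaged 2693 ± 575 under DMSO and 2159 ± 553 under trametinib (SD, n = 4 lines each). Its log2 fold change was -0.33 (adjusted p = 0.018 in limma) and lower in 4 of 4 lines, but it did not pass without the block (0.28), with equal totals (0.093), with quantile normalization (0.054), or without line #1 (0.058) or line #10 (0.064). Smad6, the inhibitory SMAD of the bone morphogenetic protein (BMP) branch, rose by 0.94 (adjusted p = 0.0017 in limma), and Smad9, a BMP-activated SMAD, by 1.73 (adjusted p = 0.0012 in limma, 0.065 without the block). The SMAD corepressor Skil rose by 0.92, and the transcription factor Runx1 fell by 1.32. Without the block 2 genes rose and 2 fell, and with equal totals 7 rose and 2 fell. Without line #1 and without line #10, 2 fell as well.

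Of 30 genes known to be induced by TGF-beta, a list that also holds Smad7, Skil, Pmepa1, Ltbp2, Itgb6 and Mmp2, 29 were tested, 21 rose, 2 fell and 6 did not pass in limma, with a median of 0.92. Without the block 15 rose and 1 fell. Many of these genes also answer to other signals, and the list was not compared with other lists. The smooth muscle genes Acta2 and Tagln rose by 6.55 and 5.82 in limma (adjusted p = 0.00056 and 0.0066), with trametinib values for Acta2 of 12674 and 11819 in lines #1 and #5 against 336 and 384 in lines #3 and #10. The change of Tagln ran from 2.16 in line #3 to 9.62 in line #5. Leaving out lines #1, #3, #5 and #10 in turn gave 5.10, 7.04, 4.55 and 6.59 for Tagln, and 6.17, 7.28, 5.89 and 6.85 for Acta2. The matricellular gene Wisp1 rose by 6.10 and the pro-apoptotic gene Bmf by 4.41. Matrix genes on the list, Fn1, Col1a1 and Col4a1, rose by 3.16, 3.60 and 1.23, and the transition factor Zeb1 by 0.58, while Snai1, Snai2 and Twist1 did not pass, at 0.79, 0.25 and -0.0033. The 2 genes that fell were Hmga2 at -2.29 and Klf10 at -0.67, both also known as targets of TGF-beta (adjusted p = 0.00057 and 0.0497 in limma). Klf10 lay at the threshold and did not pass under 10 of 15 alternatives, among them equal totals, quantile normalization, no block and leaving out line #5 or line #10. Its log2 fold change was -1.63 in line #3 and went to -0.35 without that line.

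**Figure D4:**
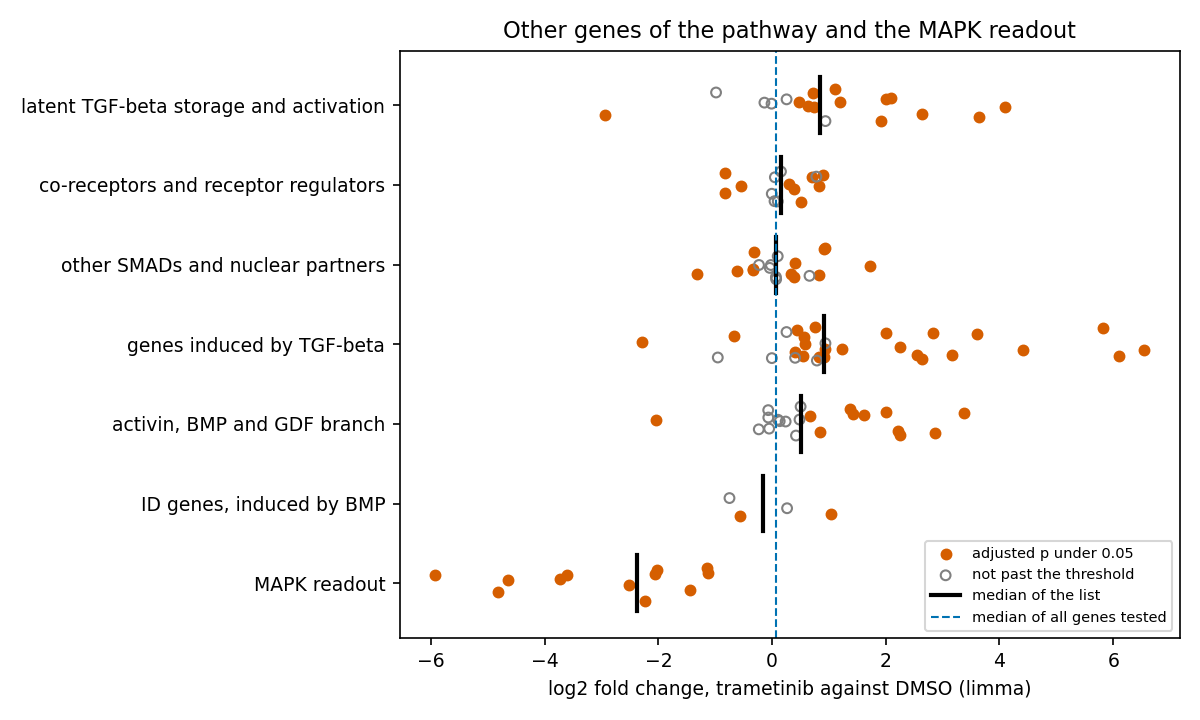
Log2 fold changes from limma (horizontal axis) of the tested genes in 6 pathway lists and in the MAPK readout. Filled points passed an adjusted p of 0.05, open points did not, black bars are list medians and the dashed line is the median of all genes tested at 0.07. The median is 0.92 for genes induced by TGF-beta and 0.84 for storage and activation of the ligand, and 0.07 for the other SMADs and partners.

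Of the 24 genes of the activin, BMP and growth differentiation factor branch found in the table, 21 were tested. In limma 10 rose, 1 fell and 10 did not pass, with a median of 0.50. The 11 of 21 that passed are near the share over all genes tested, 53.0%. Bmp2 and the activin antagonist Fstl3 rose by 2.25 and 2.22 (adjusted p = 0.0028 and 0.00060 in limma), and the call of Bmp2 was lost without the block (0.051). The activin subunit gene Inhbb was at 0 to 9.31 with DMSO and 4.68 to 75.4 with trametinib. The BMP antagonist Nog was at 0 to 2.48 with DMSO and 3.84 to 80.1 with trametinib. The sizes of the fitted changes of Inhbb and Nog, 2.87 and 3.38, thus depend on the pseudocount. Nog was 2.77 without line #1 and 4.01 without line #3, and Inhbb did not pass without the block (adjusted p = 0.070 in limma). Grem1, another BMP antagonist, was the gene that fell, by 2.04 on the log2 scale (limma, adjusted p = 0.035), with -0.04 in line #5, and did not pass without the filter, the block or the variance trend, under a minimum change of 2-fold, or without line #1 (-1.57) or line #10 (-1.53). Without line #5 it was -2.71. Without the block 7 genes of the branch rose. Of the 4 ID genes, which BMP induces, Id3 rose by 1.04 (adjusted p = 0.0031 in limma) and Id1 fell by 0.57 on the log2 scale (adjusted p = 0.0036 in limma, 0.12 without the block), and Id2 and Id4 did not pass, at 0.26 and -0.75.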

How the data were processed

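RNA of 4 murine PDAC lines, treated with DMSO or trametinib, was sequenced from stranded mRNA libraries. The authors deposited 1 table of normalized counts per gene symbol, a signal that is not in whole numbers. Their processing notes name mm10, CASAVA 2.17, Salmon 0.12 and DESeq2 1.18, and the scaling step and the use of strand are not given in the sources used here. All 8 columns matched a sample title. Between 38.8% and 62.4% of the values under 20 reads lay within 0.02 of a whole number of reads, so counts of reads were not recovered and count models were not used.

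Values were transformed as log2(value + 1), a scale that understates changes of low genes, and linear models were fitted with limma 3.58.1 under R 4.3.3 (lmFit, eBayes with a mean-variance trend, two-sided), with the cell line as a block, over 15888 genes that reached a mean of 10. Benjamini-Hochberg adjustment was used, with a threshold of 0.05. Libraries with the same number come from the same line. Their deviations from the treatment means correlated at 0.63 to 0.72 across genes, against -0.31 to -0.02 between lines. The fit was tested on simulated data. Lengths and positions came from GENCODE M21 on GRCm38, matched by symbol for 9 of 9 members, and the longest coding transcript as a second length was added after the data were seen. Tables were handled in Python 3.11.15.

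The members and lists were chosen with earlier results of these data known. All members are named. From each list the text names up to 4 genes that passed with the largest change in the same direction in all 4 lines, plus Smad2 and Id1, and 3 genes correlated with 1 member of each class. Other genes were named after their values were seen. A further gene of the rule and an allele of the model are not reported here. Alternatives were pseudocounts of 0.1 and 5, no filter, a mean of at least 50, equal totals, quantile normalization, centring on the median, no block, no trend, robust estimation, a minimum change of 2-fold, and leaving out each line.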

Additional observations from a re-analysis of the deposited data

Results flagged for a closer look

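Among 113 groups of 4 values, 4 held 1 value far from the other 3 by Dixon's test, where chance gives about 5.65. Smad9 stood at 81.3 normalized counts with DMSO in line #3, against 21.1 to 30.3 in the other lines, and at 352 with trametinib in line #3, against 62.4 to 88.2. Eng stood at 99.7 with trametinib in line #10, against 65.6 to 71.2. Bmp2 stood at 947 with DMSO in line #10, against 76.8 to 186. No value of the 9 TGF-beta ligand, receptor and SMAD genes was set apart in this way.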

How the results depend on the processing

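The rises of Tgfb2 and Tgfb3 passed under all 15 alternatives in limma, with log2 fold changes of 4.90 to 5.22 and 2.70 to 2.99. Those of Tgfbr1 and Tgfbr2 passed under 14, all but a minimum change of 2-fold, and that of Smad7 under 9. Under that minimum 2 members rose, and over all genes 557 rose and 176 fell instead of 4341 and 4075. With no replicate block for the cell line 2205 genes rose and 2347 fell, and 4 members rose. Leaving out each line gave 4 to 5 members higher, 3383 to 4195 genes higher and 3302 to 4007 lower. The log2 fold change of Smad3 was reversed to 0.09 with equal totals and with quantile normalization (0.095 and 0.089) and to 0.05 without line #1 (-0.076 to 0.054 over the lines left out), and that of Smad4 to 0.02 and 0.01 with the same scalings (0.017 and 0.015). Equal totals moved the median of all genes by 0.13, quantile normalization by -0.10, and the share of higher genes among those that passed was 51.6% as reported, 61.8% with equal totals, 76.0% with the minimum change, 47.2% with quantile normalization, 46.1% with centring on the median and 48.4% with no block. The causes were not tested. Under the minimum change, 0 to 10 genes rose in each of the 6 pathway lists. Reads per library, estimated from the values and not given as counts, came to about 29300000 to 46000000. This depth limits Tgfbr3 under both treatments and Nog, Inhbb and Itgb8 under DMSO, where values rest on few reads.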
